A study of Mus musculus with 8 samples.

Results

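The genes described here are 46 mouse genes of the DNA damage response and of DNA repair, chosen by name for their known roles: signalling from DNA breaks, homologous recombination, the Fanconi pathway, mismatch repair, base and nucleotide excision repair, and repair polymerases. A probe set is a group of short oligonucleotides on the array that reports 1 transcript or a few. By the platform's gene symbols, 45 of the 46 genes were matched to 109 probe sets (H2afx under its present symbol H2ax), and Xrcc2 was not analysed here. All 45 passed the filter on low values, which kept 11885 of 18193 named genes, so no gene of the set was lost to that filter.

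The series compared sorted Fraction B pro-B cells, the bone marrow B-cell progenitors that are B220+, CD43+, HSA+ and BP-1-, between 4 control mice of genotype MenF/F and 4 menin-deficient mice of genotype Rag1-cre;MenF/F. The labels give an age of 2 to 3 weeks, and both groups carried floxed Men1. Cre, driven by Rag1 and so active in lymphoid progenitors, was present in all menin-deficient mice and in no control, so what Cre does and what the loss of menin does cannot be told apart. Each mouse gave 1 Affymetrix whole-genome mouse array with log2 expression values, and the series asked which genes menin regulates in these progenitors.

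Menin, the product of Men1, is a scaffold protein of the nucleus that joins the MLL histone methyltransferases at target genes and has also been linked to genome stability. A DNA break is sensed by the MRE11-RAD50-NBN complex, which brings in and activates the kinase ATM, while the kinase ATR responds to single-stranded DNA at stalled replication forks. Both kinases mark chromatin, recruit adaptor proteins and slow the cell cycle, and the break is then closed by end joining or by homologous recombination, whereas damaged or mispaired bases are cut out by the excision and mismatch pathways. Pro-B cells divide and also make deliberate breaks while they assemble their immunoglobulin heavy chain genes, so they draw on both kinds of repair.

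Men1 checked the labels. Its log2 value stood at 9.54 ± 0.256 in control and 8.15 ± 0.278 in menin-deficient mice (SD, n = 4 in each group), or 2.62-fold lower (limma adjusted p = 0.00391). Of 10 pro-B markers, 2 were called higher (Igll1 and Dntt) and 1 lower (Rag1). Of all genes tested, 16.2% were called higher and 5.17% lower, and each count of markers in this paragraph is to be read beside these shares. Rag1 averaged 15.57 and 15.30, Dntt 15.41 and 15.77 and Pax5, the dimmest of the 10, 9.32 and 9.24 in control and menin-deficient arrays. Enpep, which encodes BP-1, the antigen the sort selected against, still averaged 11.40 and 11.69 at the RNA level. The mean of 8 T-cell markers ran from 4.45 to 4.59 in control and from 5.16 to 5.33 in menin-deficient arrays, with 3 of 5 tested called higher (Cd3g, Thy1 and Lat) while Cd3e sat at the lowest value of the table on all 8 arrays. The mean of 6 NK-cell markers was also higher in all menin-deficient arrays (6.82 to 7.37 against 7.59 to 8.42, 2 of 6 called higher). So was the mean of 8 plasmacytoid dendritic-cell markers (6.49 to 6.79 against 7.14 to 7.48, 2 of 8 called higher). That list was split, with 5 of 8 differences above 0 and Tlr9, Klk1 and Cox6a2 below 0. The means of 7 monocyte markers (7.65 to 8.08 against 7.46 to 9.06, 2 of 7 called higher) and 4 erythroid markers (5.65 to 6.29 against 5.49 to 6.38, 0 of 3 tested called by limma and 0 at an unadjusted p under 0.05, with Hba-a1 at the lowest value) overlapped. The mean of 6 plasma-cell markers was lower in all menin-deficient arrays, narrowly (10.596 to 11.146 against 10.330 to 10.592), but the list was split. Of the 6 differences 3 were above 0, with a median of 0.01. Jchain (means of 9.01 in control and 6.16 in menin-deficient arrays) and Sdc1 (11.66 and 10.50) were called lower and Mzb1 higher. The part of other cell types in the results below was not tested, and in these bulk samples fewer cells of a type and less RNA per cell cannot be told apart.

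Differences in repair genes were small. Of the 45 genes, 4 rose and 2 fell in menin-deficient cells at an adjusted p under 0.05, which is 13.3% of the set beside 21.3% of all 11885 genes tested. For rises alone the background was 16.2% and for falls 5.17%. The genes that rose were Atm, Rad50, Parp1 and Poll, and those that fell were Trp53bp1 and Brca2. The 45 log2 differences (menin-deficient minus control) ran from -0.73 for Trp53bp1 to 0.60 for Poll, with a median of 0.01, while the median over all genes tested was 0.11. Of the 45 genes, 25 had a difference above 0, as did 7945 of the 11885. The median size of the difference without its sign was 0.18 for the repair genes and 0.21 for all genes tested.

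The median of the tested genes ran from 10.088 to 10.167 in control and from 10.239 to 10.29 in menin-deficient arrays. This bears on the direction of small differences. The medians over all probe sets overlapped (3.2909 to 3.4481 in control and 3.4334 to 3.4957 in menin-deficient arrays). Whether whole arrays were shifted or more of the tested genes were truly higher was not tested. Setting each array to the median of its tested genes moved menin-deficient against control values by 0.13 on the log2 scale. On that scale 8 of the 45 genes were called, beside 15.8% of all genes (7.67% higher and 8.17% lower). Parp1 and Poll remained higher, Trp53bp1 and Brca2 remained lower, and Xrcc3, Wrn, Ung and Xrcc1 were then also called lower. Atm and Rad50 were not called after centring, with log2 differences of 0.22 (limma adjusted p = 0.193) and 0.12 (limma adjusted p = 0.255). The split was thus 4 higher and 2 lower on the deposited values and 2 higher and 6 lower after centring, and the median of the set was -0.12 after centring against -0.02 for all genes.

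The precision of 4 arrays per group allowed upper limits for the brightest probe set of most genes. The 95% interval of the difference lay within 1.5-fold in either direction for 30 of the 45 genes (66.7%, beside 58.6% of all genes tested). It lay within 2-fold for 43 of the 45 (95.6%, beside 84.6%), the exceptions being Xrcc3 and Rad18. The median SE was 0.11 for the repair genes. A gene that was not called is therefore described by the interval of its brightest probe set, and not as unchanged. These intervals do not bound the other sets of a gene. Dimmer sets of Brca1 (1451417_at) and Rad51c (1423026_at) differed by 0.64 (95% interval 0.04 to 1.24) and 0.63 (0.03 to 1.24), neither called. A dimmer set of Topbp1 (1458480_at) was called lower at -0.56 (-0.81 to -0.32).

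**Figure D1:**
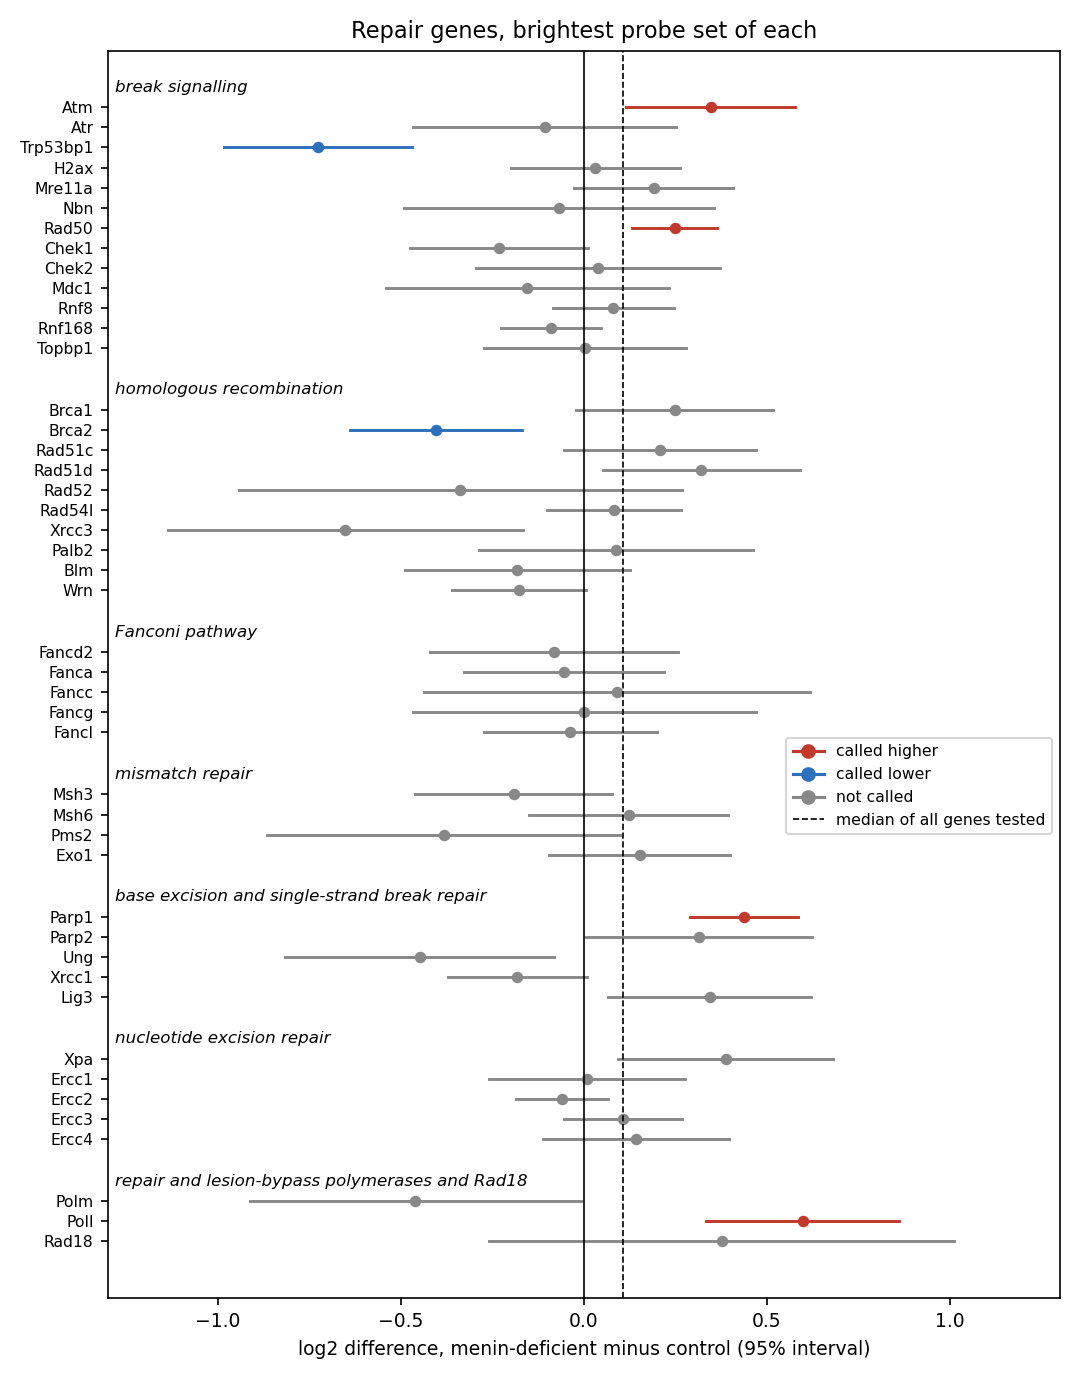
Log2 difference in expression (menin-deficient minus control) of the brightest probe set of each of 45 repair genes, grouped by role, with points for the estimates and bars for 95% intervals from limma (4 arrays per group). Red and blue mark the 4 genes called higher and the 2 called lower, and the dashed line is the median of all genes tested (0.11); most intervals cross 0.

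Break signalling held 13 of the 45 genes, of which 2 rose and 1 fell, and the median log2 difference was 0.00 with a range from -0.73 to 0.35. By brightest probe sets, the largest difference of the 45 genes was in Trp53bp1. It encodes a p53-binding adaptor that gathers on chromatin beside breaks, limits the trimming of their ends and favours end joining. Its brightest probe set (1426956_a_at) read 13.39, 13.38, 13.61 and 13.11 on the control arrays, here and below in the order of their replicate numbers, against 12.65, 12.53, 12.79 and 12.62 on the menin-deficient ones. The lowest control was above the highest menin-deficient array. The log2 difference was -0.73 (SE 0.11, 95% interval -0.98 to -0.47), 1.66-fold lower, with a limma adjusted p of 0.00640. Other probe sets of Trp53bp1 went the other way, as described further on, so this fall holds for the transcripts that this probe set reports.

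Rad50 encodes the long coiled-coil ATPase that tethers the ends of a break within the MRE11-RAD50-NBN complex. Its values were 12.03, 12.10, 12.05 and 12.13 in the control and 12.30, 12.35, 12.24 and 12.41 in the menin-deficient arrays. The groups did not overlap, and both were tight (SD 0.0463 and 0.0764). The log2 difference was 0.25 (SE 0.05, 95% interval 0.13 to 0.36), 1.19-fold higher (limma adjusted p = 0.0153). The partners of Rad50 in that complex were not called: Mre11a, the nuclease, differed by 0.19 (95% interval -0.03 to 0.41), and Nbn, which docks the complex to chromatin marks, by -0.07 (-0.49 to 0.36). Whether Rad50 differed from its partners was not tested.

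Atm, the kinase that starts the response to double-strand breaks, read 11.28, 11.50, 11.22 and 11.50 in the control and 11.87, 11.80, 11.53 and 11.68 in the menin-deficient arrays. The highest control and the lowest menin-deficient array were close together but did not overlap. The log2 difference of 0.35 (SE 0.10, 95% interval 0.12 to 0.58), 1.27-fold higher, passed the threshold narrowly (limma adjusted p = 0.0462). The call was lost when any array other than menin-deficient replicate 3 was left out, with adjusted p-values from 0.0528 to 0.117. Atr, the kinase for stalled forks, differed by -0.11 (95% interval -0.47 to 0.25) and was not called.

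The other genes of break signalling were not called by their brightest probe sets. The checkpoint kinases, which pass the signal to the cell cycle, differed by -0.23 for Chek1 (95% interval -0.48 to 0.01) and 0.04 for Chek2 (-0.30 to 0.37). H2ax, the histone variant that is phosphorylated around breaks, differed by 0.03 (95% interval -0.20 to 0.26), and Mdc1, the protein that reads that mark, by -0.15 (-0.54 to 0.23). The ubiquitin ligases Rnf8 and Rnf168, which act after Mdc1 to recruit that adaptor, differed by 0.08 and -0.09, with intervals that stayed within 0.25 of 0. The brightest probe set of Topbp1, an activator of ATR, differed by 0.00 (95% interval -0.27 to 0.28). Intervals of the brightest probe sets lay within 1.5-fold for 12 of the 13 genes of this role.

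Homologous recombination, which copies the missing sequence from the sister chromatid, held 10 matched genes. Brca2 was the 1 gene of this role called, and it fell. BRCA2 is a large protein needed for this form of repair. The control arrays read 9.67, 9.95, 9.83 and 9.74 and the menin-deficient arrays 9.63, 9.39, 9.24 and 9.31. Menin-deficient replicate 1 lay just under the lowest control, and the other 3 were well below it. The log2 difference was -0.41 (SE 0.10, 95% interval -0.64 to -0.17), 1.32-fold lower, with a limma adjusted p of 0.0295. Leaving out control replicate 2, 3 or 4, or menin-deficient replicate 2, 3 or 4, ended the call, with adjusted p-values from 0.0572 to 0.0753.

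Among the other genes of this role, Xrcc3 differed most. XRCC3 acts in strand exchange, as do RAD51C and RAD51D. Its values were 7.68, 7.37, 7.65 and 8.24 in the control and 7.30, 6.73, 7.08 and 7.24 in the menin-deficient arrays. The groups did not overlap, but the spread was wide, and the log2 difference of -0.65 (95% interval -1.14 to -0.17) was not called (limma adjusted p = 0.0629). After centring it was -0.78 and was called (limma adjusted p = 0.0297). The probe set is an _x_at set, a kind whose oligonucleotides can match other transcripts, and the other Xrcc3 probe set differed by 0.35 without being called. Rad51c and Rad51d differed by 0.21 (95% interval -0.06 to 0.47) and 0.32 (0.05 to 0.59, limma adjusted p = 0.0891).

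Brca1, which promotes the resection of break ends, differed by 0.25 (95% interval -0.02 to 0.52), and Palb2, the bridge between BRCA1 and BRCA2, by 0.09 (-0.29 to 0.46), neither called. Rad52, a protein that anneals single strands, differed by -0.34 with a wide interval (-0.94 to 0.27), and the brightest probe set of Rad54l, a motor protein of strand exchange, by 0.08 (-0.10 to 0.27). The RecQ helicases that unwind recombination intermediates differed by -0.18 for Blm (95% interval -0.49 to 0.13) and -0.18 for Wrn (-0.36 to 0.01). Wrn was called lower after centring (log2 difference -0.30, limma adjusted p = 0.0347).

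The Fanconi pathway, which unhooks links between the DNA strands, had the narrowest range of differences of the roles. Its 5 genes differed by -0.08 to 0.09, and limma called none of them (0 at an unadjusted p under 0.05). Fancd2, the protein that is ubiquitinated to start the repair, differed by -0.08 (95% interval -0.42 to 0.26). Of the core complex that ubiquitinates it, Fanca differed by -0.05 (95% interval -0.33 to 0.22), Fancc by 0.09 (-0.44 to 0.62) and Fancg by 0.00 (-0.47 to 0.47). Fancl, the ligase subunit, differed by -0.04 (95% interval -0.27 to 0.20). Fancc was the dimmest gene of the set, at a control mean of 6.17.

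Mismatch repair held 4 genes, and limma called none (0 at an unadjusted p under 0.05). Msh6 and Msh3, which take part in recognising small and larger mismatches, differed by 0.12 (95% interval -0.15 to 0.39) and -0.19 (-0.46 to 0.08). Exo1, the exonuclease that removes the strand with the error, differed by 0.15 (95% interval -0.09 to 0.40). Pms2, which nicks that strand, differed by -0.38 (95% interval -0.86 to 0.10), and its 2 dimmer probe sets by -0.01 and 0.33, so that its probe sets did not share a direction.

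Base excision and single-strand break repair held 5 genes, of which 1 was called. Parp1 rose. It encodes the abundant enzyme that binds nicks and builds poly(ADP-ribose) chains there to recruit repair proteins. Its brightest probe set (1422502_at) read 13.46, 13.40, 13.48 and 13.48 in the control and 13.74, 13.93, 13.89 and 14.02 in the menin-deficient arrays. All menin-deficient arrays lay above all controls, which differed from each other by less than 0.1. The log2 difference was 0.44 (SE 0.06, 95% interval 0.29 to 0.59), 1.35-fold higher, with a limma adjusted p of 0.00572. After centring it was 0.31 (limma adjusted p = 0.0267).

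The 3 other probe sets of Parp1 were not called, and they were not alike. Fitted each on its own, 1422503_s_at differed by 0.24 (limma adjusted p = 0.0599), 1435368_a_at by -0.20 (limma adjusted p = 0.298) and 1443573_at by -0.39 (limma adjusted p = 0.174). The mean over the 4 probe sets differed by 0.02 (limma adjusted p = 0.837), so the call rests on the brightest set.

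Parp2, a relative of Parp1 that also responds to nicks, differed by 0.31 (95% interval 0.00 to 0.62), and Lig3, the ligase that seals them, by 0.34 (0.07 to 0.62); neither was called (limma adjusted p = 0.134 and 0.0816). The menin-deficient arrays lay above all controls for Parp2 and overlapped them for the brightest set of Lig3. A dimmer set of Lig3 (1425865_a_at, control mean 5.19) differed by 0.77 (95% interval 0.19 to 1.36) without overlap. It was not called (limma adjusted p = 0.0838), although no brightest set of the 45 genes differed by as much. Another Lig3 set (1423419_at) differed by -0.01. Xrcc1, the scaffold that holds LIG3, differed by -0.18 (95% interval -0.37 to 0.01). Ung, the glycosylase that removes uracil from DNA, differed by -0.45 (95% interval -0.82 to -0.08, limma adjusted p = 0.0844). Its values were 13.16, 13.74, 13.41 and 13.31 in the control and 13.21, 12.72, 12.82 and 13.08 in the menin-deficient arrays, so that only menin-deficient replicate 1 reached the control range. After centring, Ung and Xrcc1 were called lower (log2 differences of -0.57 and -0.31, limma adjusted p = 0.0491 and 0.0406).

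Nucleotide excision repair, which removes bulky damage such as that from ultraviolet light, held 5 genes, of which limma called none (1 at an unadjusted p under 0.05, Xpa). Xpa, the protein that verifies the damage, differed by 0.39 (95% interval 0.09 to 0.68, limma adjusted p = 0.0673). The helicases of the transcription factor TFIIH differed by 0.11 for Ercc3 (95% interval -0.06 to 0.27) and -0.06 for Ercc2 (-0.18 to 0.07). Ercc1 and Ercc4, which together form the nuclease that cuts on the 5′ side, differed by 0.01 (95% interval -0.26 to 0.28) and 0.14 (-0.11 to 0.40). The next brightest set of Ercc4 (1440237_at) differed by 0.43 (95% interval 0.13 to 0.73) without overlap and was not called (limma adjusted p = 0.0661).

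The last group held the polymerases Poll and Polm, which fill gaps at DNA ends, the latter mainly during V(D)J recombination of light chain genes, and Rad18, the ligase that marks the sliding clamp for lesion bypass. By brightest probe sets, Poll rose most of all 45 genes. It read 9.08, 9.17, 8.83 and 8.96 in the control and 9.55, 9.88, 9.50 and 9.50 in the menin-deficient arrays. The groups were separated by more than 0.3 on the log2 scale. The log2 difference was 0.60 (SE 0.11, 95% interval 0.33 to 0.86), 1.51-fold higher, with a limma adjusted p of 0.0128, and 0.47 after centring (limma adjusted p = 0.0374).

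Polm pointed the other way without being called. Its values were 9.80, 9.31, 9.14 and 9.74 in the control and 8.70, 8.96, 9.22 and 9.25 in the menin-deficient arrays, and the 2 ranges overlapped. The log2 difference was -0.46 (95% interval -0.91 to -0.01, limma adjusted p = 0.133). Rad18 was the least precise gene of the set: its brightest probe set differed by 0.38 with an interval from -0.26 to 1.01. A dimmer probe set (1435826_at) read 7.76, 7.81, 7.92 and 7.85 in the control and 7.55, 7.37, 7.66 and 7.63 in the menin-deficient arrays, and fell by 0.29 when every probe set was fitted (SE 0.07, limma adjusted p = 0.0459). That call was lost when any 1 array was left out, with adjusted p-values from 0.0511 to 0.0974. The 2 remaining sets of Rad18 differed by -0.25 and 0.00, so no single direction can be given for this gene.

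**Figure D2:**
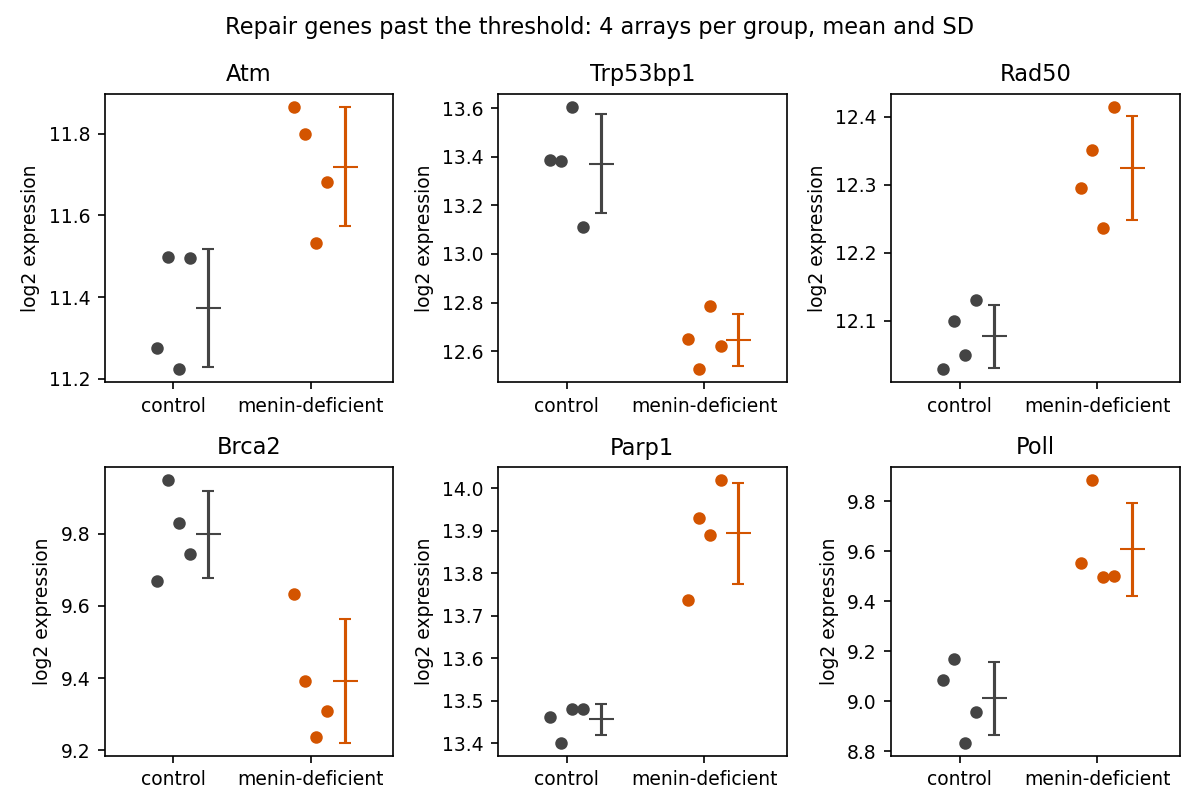
Log2 expression on each array (points) with mean and SD (bars) for the 6 repair genes that passed the threshold, 4 control and 4 menin-deficient arrays, with a separate y axis per gene that does not start at 0. The brightest probe set of each gene is shown. The 2 groups do not overlap in any of them, which picking genes by p-value favours. By these sets Atm, Rad50, Parp1 and Poll are higher and Trp53bp1 and Brca2 lower in menin-deficient cells. Other sets of Trp53bp1, Atm and Parp1 had differences of the opposite sign.

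Reading every probe set on its own gave a similarly small count. Of the 109 probe sets of these genes, 100 passed the filter and 9 did not, the latter belonging to Trp53bp1, Rad50, Chek1, Brca1, Fancd2, Lig3 and Ercc1, genes that were each represented by a brighter set. Of the 100, 4 were called higher and 4 lower, or 8%, beside 14.2% of all 26790 probe sets (9.34% higher and 4.87% lower). They were 2 sets of Trp53bp1 in opposite directions, and 1 set each of Rad50, Parp1 and Poll (higher) and of Topbp1, Brca2 and Rad18 (lower). Atm missed the threshold in this fit (limma adjusted p = 0.0606). After centring, 10 of the 100 were called, 2 higher and 8 lower. The 8 include a set of Fancc (1447632_at) near the lowest value of the table, at 2.30 on every control array. It differed by -0.12 on the deposited values, not called, and by -0.24 after centring (limma adjusted p = 0.0412). The shares of all probe sets above are for the deposited values and cannot be set beside these counts. Among all genes, centring took the share called lower from 5.17% to 8.17%. On the deposited values, the count of 8 called probe sets was 4 without menin-deficient replicate 2 and 5 without control replicate 1.

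Probe sets of a gene can report different transcript forms, and in 4 genes they responded differently. The brightest and the next brightest set were compared within each array, where a shift of the whole array cancels. The responses differed in 4 of 29 repair genes with at least 2 tested sets (13.8%), beside 17.4% of 5824 genes. The 4 genes were Trp53bp1, Topbp1, Atm and Rad54l. The count was 2 without control replicate 1 or 3 or without menin-deficient replicate 2 or 3. Tested sets of opposite sign, whatever their size, were found in 16 of 29 repair genes (55.2%) and in 55.6% of all genes.

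Trp53bp1 disagreed most. While its brightest set fell by 0.73, the next brightest (1426957_at) read 9.61, 9.21, 10.20 and 9.62 in the control and 9.89, 9.91, 10.06 and 9.92 in the menin-deficient arrays. That set overlapped between groups and differed by 0.29 (limma adjusted p = 0.368). The third (1435609_at) read 7.02, 7.16, 7.18 and 7.02 in the control and 7.66, 7.57, 7.41 and 7.48 in the menin-deficient arrays. It rose by 0.44 (SE 0.07, limma adjusted p = 0.0117), with all menin-deficient arrays above all controls, and just missed the threshold after centring (limma adjusted p = 0.0534). The 2 dimmest tested sets lay near the lowest value of the table (control means of 3.02 and 2.33) and differed by 0.01 and 0.05. The difference between the 2 brightest sets changed by -1.01 (SE 0.17, limma adjusted p = 0.00686). Averaged over its tested probe sets, Trp53bp1 differed by 0.01 (limma adjusted p = 0.990), so its direction depended on the probe set.

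Topbp1 was level in its brightest set and lower in its other one. The brightest averaged 13.83 in control and 13.84 in menin-deficient arrays. The other (1458480_at) read 8.99, 8.79, 9.24 and 8.92 in the control and 8.34, 8.39, 8.57 and 8.39 in the menin-deficient arrays, without overlap, and fell by 0.56 (SE 0.10, limma adjusted p = 0.0162; 0.0520 without menin-deficient replicate 2). The difference between the 2 sets changed by 0.57 (SE 0.11, limma adjusted p = 0.0139).

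In Rad54l and Atm the disagreement was smaller. The brightest set of Rad54l differed by 0.08, while its 3 others differed by -0.34, -0.20 and -0.24, none called on its own. The difference between the 2 brightest changed by 0.43 (SE 0.11, limma adjusted p = 0.0328). The second set of Atm (1421205_at) differed by -0.16 (limma adjusted p = 0.493) beside the rise of the first, and the difference between them changed by 0.50 (SE 0.15, limma adjusted p = 0.0475). The Rad54l call was lost without control replicate 1, 2 or 3 or menin-deficient replicate 2, 3 or 4 (adjusted p-values from 0.0572 to 0.0905), and the Atm call without any array other than control replicate 2 (0.0600 to 0.116). Where these probe sets lie in the transcripts was not analysed here.

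**Figure D3:**
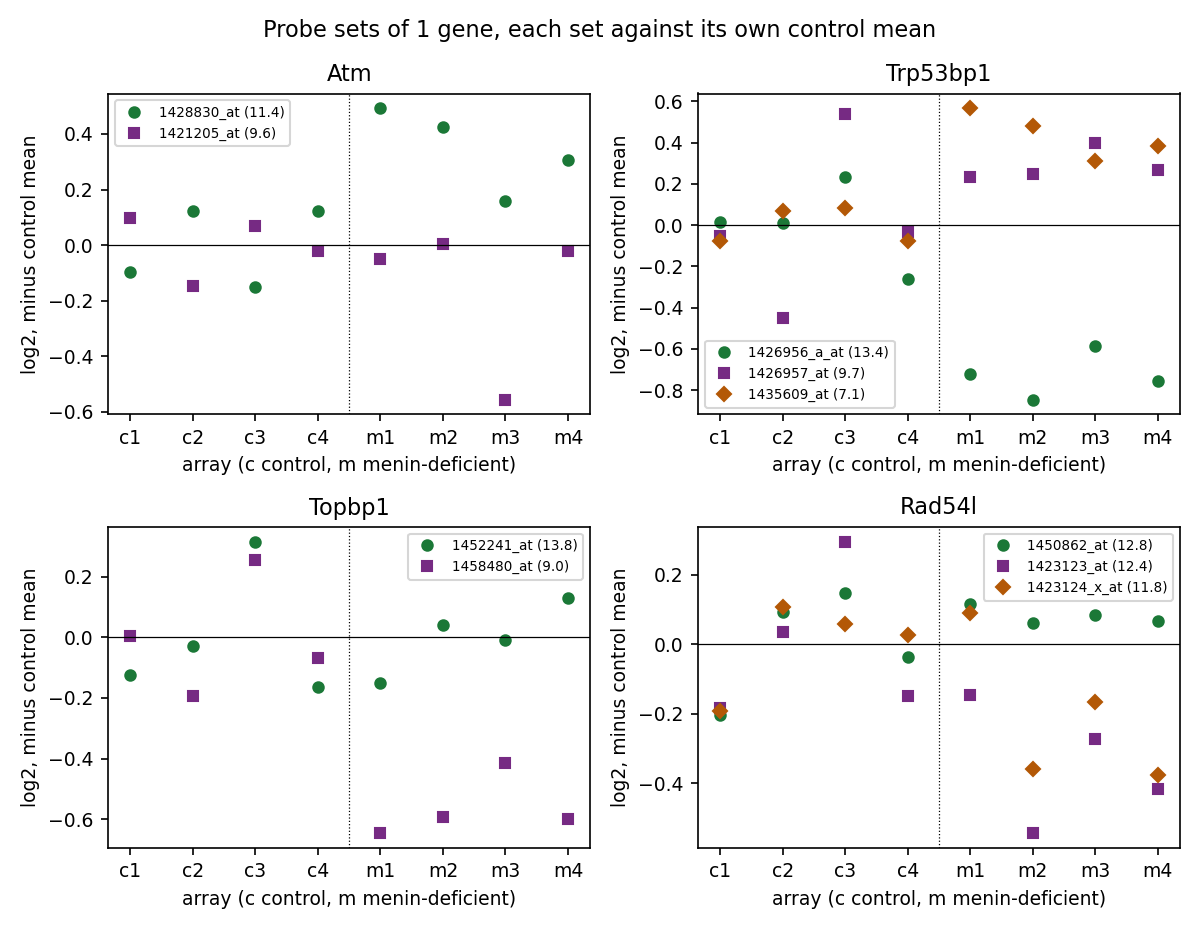
Log2 value of each probe set minus the mean of that set in control arrays, by array (c1 to c4 control, m1 to m4 menin-deficient), for the 4 repair genes whose probe sets responded differently; the legend gives each set and its control mean. In Trp53bp1 the brightest set lies below 0 and the 2 other sets shown above 0 in all 4 menin-deficient arrays, and in Topbp1 only the dimmer set lies apart from the controls.

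Some promoters of the repair genes held the motifs searched, and no enrichment was tested. RefSeq promoters (build GRCm38.p6, from 250 bases before to 50 after each start) were given for 36 of the 46 genes, with 39 promoters, since some genes have more than 1. The E2F motifs TTTCCCGC and TTTGGCGC, sites bound by the factors that switch on genes at the entry into S phase, were searched as exact letters on both strands. One or the other was in 7 of 39 repair promoters (17.9%), beside 1.56% of 32851 promoters in all. The genes were Brca2, Chek2, Fancg, Mdc1, Msh3, Msh6 and Rad51c, of which Brca2 was the 1 gene called and the others differed by -0.19 to 0.21. The cAMP response element TGACGTCA was in 5.13% of repair promoters (Brca2 and Rad51c) beside 1.79% in all, the NRF1 motif GCGCATGC in 7.69% beside 2.71%, and CCAAT in 51.3% beside 37.4%. A match is a description of letters and not of binding.

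The promoters of Brca2 and Parp1 are shown because these genes were called and their 2 brightest probe sets, where there were 2, were not called different. For Parp1 the 2 sets compared did not include 1435368_a_at, whose difference had the opposite sign to that of the brightest set. Rad50 and Poll also met this rule, but no promoter of theirs was among those used. The 2 promoters shown are of a gene called lower and of 1 called higher, on the deposited values and after centring, Parp1 by its brightest set only. Both lie on the plus strand, at chr5:150522371-150522670 and chr1:180568641-180568940, and are printed 5′ to 3′ with the motifs searched in capitals.
Brca2: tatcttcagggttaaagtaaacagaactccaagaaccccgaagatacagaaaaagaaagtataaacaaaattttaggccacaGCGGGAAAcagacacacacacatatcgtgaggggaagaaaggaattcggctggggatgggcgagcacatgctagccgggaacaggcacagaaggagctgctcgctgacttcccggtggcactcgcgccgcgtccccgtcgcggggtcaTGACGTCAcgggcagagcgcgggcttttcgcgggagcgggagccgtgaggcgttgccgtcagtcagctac
Parp1: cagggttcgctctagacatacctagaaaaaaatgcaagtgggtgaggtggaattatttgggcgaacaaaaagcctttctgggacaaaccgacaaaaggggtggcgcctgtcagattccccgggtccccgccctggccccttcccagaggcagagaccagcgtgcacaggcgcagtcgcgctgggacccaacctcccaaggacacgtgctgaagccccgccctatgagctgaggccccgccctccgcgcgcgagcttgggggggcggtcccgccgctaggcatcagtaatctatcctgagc
The Brca2 promoter holds the E2F motif on the minus strand, read as GCGGGAAA, beginning 168 bases before the start, and the cAMP response element beginning 20 bases before it. The Parp1 promoter holds none of the motifs searched, which says only that these letters are not in this window. Its GC content is 62% and that of the Brca2 promoter 56.7%. No probe sequences were used here.

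Other genes of the same pathways were counted in the same way. Of 129 further repair genes listed by role, 119 were matched and 117 tested, and 11 rose and 4 fell (12.8%, beside 21.3% of all genes). The count of 15 was 6 without menin-deficient replicate 2 and 8 without control replicate 1 or 4. Their median log2 difference was 0.13, beside 0.11 for all genes tested. After centring 3 were higher (Fance, Mnat1 and Mms19) and 8 lower. Nucleotide excision repair held the most rises, 5 of 18 tested (16.2% of all genes rose), with 1 fall (5.17% of all genes fell). Mnat1 and Gtf2h3, subunits of TFIIH, rose by 0.54 (limma adjusted p = 0.00874) and 0.44 (limma adjusted p = 0.0173), and Xpc, which finds the damage, rose by 0.38 (limma adjusted p = 0.0196). Mms19, an assembly factor for iron-sulfur proteins, rose by 0.58 (limma adjusted p = 0.0250). Cetn2, a partner of XPC, fell by 0.33 in an _x_at probe set (limma adjusted p = 0.0232), while without such sets it differed by -0.04 (limma adjusted p = 0.858) and by the mean of its probe sets by -0.18 (limma adjusted p = 0.227). The fifth rise was Rad23b, another partner of XPC, by 0.27 in an _s_at set (limma adjusted p = 0.0398); it was lost on leaving out any array other than menin-deficient replicate 3, and without _x_at and _s_at sets the gene differed by -0.22 (limma adjusted p = 0.267). Leaving out 1 array ended the call of Mnat1 and Gtf2h3 in no case, that of Xpc in 2 cases (control replicate 4 and menin-deficient replicate 2), that of Cetn2 in 3 (control replicates 1, 2 and 4) and that of Mms19 in 4 (control replicate 1 and menin-deficient replicates 2, 3 and 4).

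Among further Fanconi genes 2 of 13 rose and 2 fell. Of all genes tested, 16.2% were called higher and 5.17% lower, and each count by role in this paragraph is to be read beside these shares. Fance, a core complex subunit, rose by 0.79 (limma adjusted p = 0.0201) and Usp1, the enzyme that removes ubiquitin from FANCD2, by 0.17 (limma adjusted p = 0.0286), although the mean of the Usp1 probe sets differed by -0.06 (limma adjusted p = 0.742). Wdr48, the cofactor of USP1, was lower by its _x_at probe set (log2 difference -0.77, limma adjusted p = 0.00950), and Faap20, a small core complex subunit, fell by 0.38 (limma adjusted p = 0.0247). The call of Wdr48 was kept on leaving out any 1 array, but without _x_at and _s_at sets the gene differed by -0.01 (limma adjusted p = 0.977), and the mean of its probe sets by -0.22 (limma adjusted p = 0.0825). The mean of the Faap20 probe sets differed by -0.08 (limma adjusted p = 0.498). The call of Fance was lost without control replicate 4 or menin-deficient replicate 2, that of Faap20 without control replicate 1, 3 or 4 or menin-deficient replicate 2, and that of Usp1 without control replicate 1, 2 or 4 or menin-deficient replicate 1 or 2. In homologous recombination, 1 of 25 genes fell and none rose. That gene was Rad51ap1, an accessory factor of strand exchange, with means of 12.93 in control and 12.50 in menin-deficient arrays (log2 difference -0.43, limma adjusted p = 0.00993), and it was called on leaving out any 1 array. The mean of the Rad51ap1 probe sets differed by -0.06 (limma adjusted p = 0.775).

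The remaining roles held few calls, to be read beside the 16.2% of all genes called higher and 5.17% called lower. In break signalling 2 of 23 rose, Babam2, a subunit of the BRCA1-A complex, by 0.38 (limma adjusted p = 0.0188) and Ube2n, the ubiquitin-conjugating enzyme that works with RNF8, by 0.29 (limma adjusted p = 0.0462). In base excision repair 1 of 19 rose, the glycosylase Mutyh, by 0.35 (limma adjusted p = 0.00708). Ube2b, the partner of RAD18, rose by 0.25 (limma adjusted p = 0.0385) as 1 of 13 genes beside the polymerases. Calls of Ube2n and Ube2b were each lost on leaving out any of 6 arrays (Ube2n all but menin-deficient replicates 1 and 3, Ube2b all but control replicates 2 and 3), and that of Babam2 without menin-deficient replicate 2 (limma adjusted p = 0.0539). Limma called none of 4 further mismatch repair genes (1 at an unadjusted p under 0.05) and none of 3 genes of direct reversal (2 at an unadjusted p under 0.05).

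Genes that accompany repair, namely those of proliferation and the targets of p53, are given for comparison. Of 29 proliferation genes tested, 1 rose and 3 fell (13.8%, beside 21.3% of all genes, 16.2% higher and 5.17% lower): Gins2, of the replicative helicase, rose by 0.47, and Kif11, a mitotic motor, fell by 0.37 (the mean of its probe sets differed by -0.10, limma adjusted p = 0.857), while Mcm5 and Cdc20 fell by 0.20 and 0.28 in _x_at probe sets. Other probe sets of Mcm5 and Cdc20 turned the direction (0.16 and 0.24, limma adjusted p = 0.147 and 0.0709), and the call of Kif11 was lost on leaving out any array other than control replicate 4 and menin-deficient replicate 2. The median difference of the list was 0.09. After centring, 0 genes of the list were called higher and 4 lower, beside 7.67% and 8.17% of all genes. Gins2 then differed by 0.35 and was not called (limma adjusted p = 0.0569). Of 19 p53 targets tested, 3 rose and none fell (15.8%, beside 21.3% of all genes called and 16.2% risen), with a median of 0.20. Leaving out control replicate 4 or menin-deficient replicate 2 took the count of 3 to 1, and leaving out menin-deficient replicate 3 took it to 5. These were Cdkn1a, the cell cycle inhibitor p21, by 1.07 (limma adjusted p = 0.00587), Zmat3 by 0.84 (limma adjusted p = 0.0237) and Xpc, which is also a repair gene. Cdkn1a and Zmat3 were also called after centring. Some genes of these lists are also among the further repair genes, and all were chosen with earlier results of these data in view.

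**Figure D4:**
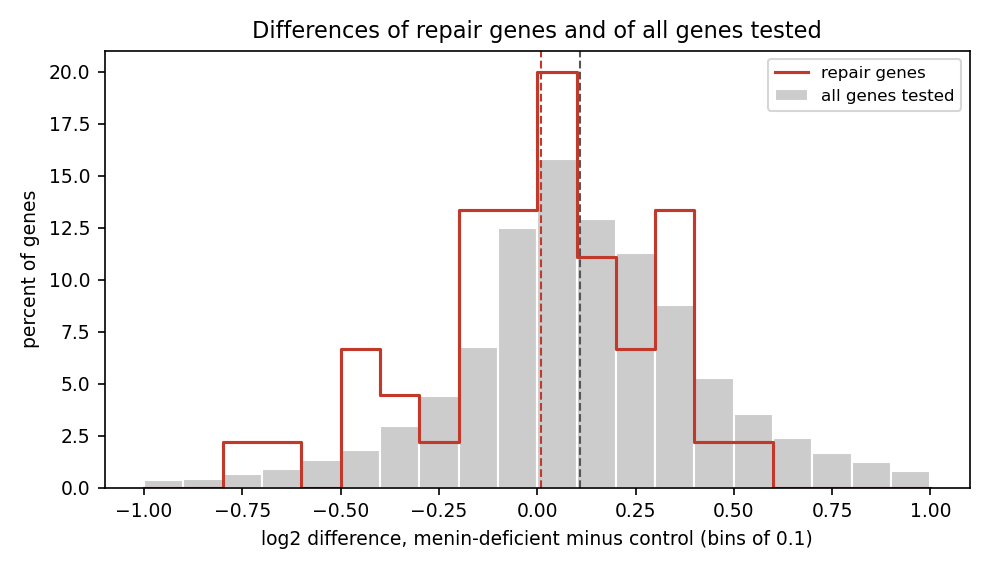
Percent of genes by log2 difference (menin-deficient minus control, bins of 0.1) for 45 repair genes (red line) and all 11885 genes tested (grey bars, those from -1 to 1 shown), with dashed lines at the medians of 0.01 and 0.11. By their brightest probe sets, the repair genes lie between -0.73 and 0.60.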

How the data were processed

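Total RNA of sorted cells was amplified in a single round, and the biotin-labelled product was hybridised to 1 array for each mouse, per the labels' protocols. The values the authors deposited were taken as log2, since they run from 2.08 to 17.4. MAS5 and GCRMA are named, per the submitters' processing notes; the step each was used for and their versions are not given in the sources used. About 36.1% to 36.7% of probe sets share the lowest value on each array, which compresses differences of dim genes. Groups and replicate numbers came from the sample titles, which call the mice biological replicates.

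Probe sets with 1 gene symbol (34945 of 45037; 932 have several and 9160 none) were named by the platform annotation. Those above the 40th percentile of their own array on 4 or more of the 8 arrays passed, and the brightest stood for its gene. Brightness was the mean over all 8 arrays, so both groups entered the choice. The groups were compared in limma 3.58.1 with lmFit and then eBayes, under R 4.3.3 and data.table version 1.17.8. There were no covariates, p-values were adjusted over all genes or probe sets (Benjamini-Hochberg), and the threshold was 0.05. Every adjusted p-value comes from such a fit. The fit was tested on simulated data. Python 3.11.15 and matplotlib 3.10.9 made the plots.

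Same-numbered control and menin-deficient arrays did not deviate together (correlations of -0.11, -0.31, -0.17 and 0.05), so the numbers were not taken as pairs. Arrays of 1 group correlated at 0.991 to 0.996, and arrays of different groups at 0.985 to 0.991. By Xist and Eif2s3y, 1 control and 2 menin-deficient mice were male.

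All members are accounted for. Full values are given for those past the threshold on the deposited values in either fit or with disagreeing probe sets. Per role they are also given for up to 4 of the other repair genes with the lowest p. The members and lists were chosen with earlier results of these data known. Alternatives were quantile normalization, centring, other filters, averaging the probe sets of a gene, dropping _x_at and _s_at sets, array weights, eBayes with a trend and robust settings, the replicate block, the sex of the mouse, a looser threshold (0.10) and leaving out each array.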

Additional observations from a re-analysis of the deposited data

Results flagged for a closer look

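In 6 of the 102 groups of 4 arrays examined (2 groups for each of 51 probe sets), 1 array lay far from the other 3; chance gives about 1 in 20. Control replicate 3 read 11.33 for Wrn (others 11.05 to 11.08) and 9.004 for Ercc4 (others 8.85 to 8.87). Menin-deficient replicate 2 read 9.88 for Poll (others 9.50 to 9.55) and 7.59 for Ercc2 (others 7.76 to 7.79). Menin-deficient replicate 1 read 5.79 for Fancc (others 6.37 to 6.47). Menin-deficient replicate 3 read 9.04 for the second probe set of Atm (others 9.54 to 9.60). Poll was called without menin-deficient replicate 2 as well.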

How the results depend on the processing

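Alternatives were run on 6 called repair genes, of which Poll was called under all 20, and 5 kept their sign under all. The exception is Trp53bp1, at 0.0102 with the mean of its probe sets. Usp1 turned to -0.0579 with that mean, and without _x_at and _s_at sets Cdc20, Mcm5 and Rad23b turned to 0.24, 0.16 and -0.22. Of 39 genes not called, 8 were called under at least 1 alternative and 31 under none. The count of repair genes called (6) became 10 with array weights and 11 at a threshold of 0.10, and was 4 to 6 when arrays were left out. Such counts are given in this paragraph without the share of all genes or probe sets called under the same setting. They therefore do not show whether these lists differed from other genes under it. The count called higher (4) was 2 after quantile normalization, 2 with either centring and 7 at 0.10 (3 to 5 with an array left out). The count called lower (2) was 6 after centring on tested genes, 3 after quantile normalization or centring on all probe sets, 3 with a 60th percentile filter, 1 without a filter, 1 with the mean of probe sets, and 4 with array weights or at 0.10 (1 to 2 with an array left out). Called probe sets (8) became 14 with array weights or at 0.10 (4 to 9 with an array left out), and disagreeing genes (4) became 8 at 0.10 (2 to 4). With the replicate number as a block, 6 genes, 4 probe sets and 2 disagreeing genes were called, as were 9 wider repair, 1 proliferation and 1 p53 target gene. The wider repair count (15) was 9 centred on all probe sets, 8 with the mean of probe sets, 10 without a filter, 25 with array weights and 27 at 0.10 (6 to 15). The proliferation count (4) was 2, 8 and 10 under the mean, weights and 0.10, and 6 with sex as a covariate or trended and robust eBayes (3 to 5). The p53 target count (3) was 2 under both centrings and both other filters (1 to 5 with an array left out). The largest losses came without menin-deficient replicate 2 (4 genes, 4 probe sets, 6 wider repair genes). The causes were not tested. No pseudocount was needed, the values being on a log2 scale. The number of arrays, 4 per group, and the shared lowest value limit what can be seen in dim genes.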
